A study of Mus musculus with 10 samples.

Results

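The aquaporins are the membrane channels that carry water across cells, and 8 of the 12 aquaporin genes found in the deposited tables, Aqp1, Aqp3, Aqp4, Aqp5, Aqp7, Aqp8, Aqp9 and Aqp11, are described here out of 48897 rows. The 8 genes were selected on their levels and differences in these same libraries, found by their symbols, so the differences between Arid1a KO and control given for them are a description and carry no test. The other 4 are Mip (Aqp0 of the eye lens), Aqp2, Aqp6 and Aqp12. RNA-seq covered 2 systems. In the first, epithelium positive for EpCAM and negative for CD45 was sorted from prostates of 3-month-old C57BL/6 mice, with 3 libraries (A, B and C) from control mice and 3 from mice that also lacked Arid1a (Arid1aPC-/-). Both groups carried a further engineered deletion, made like that of Arid1a by a Cre driven by the prostate-specific Probasin promoter, so the controls are not wild type and no wild-type prostate was included. In the second, Myc-CaP, a line established from a prostate cancer of an FVB mouse carrying a c-Myc transgene, gave 2 libraries with an empty vector (EV) and 2 with Arid1a KO made with a guide RNA and Cas9. The labels attach the same growth and treatment text to all 10 samples and do not settle whether the Myc-CaP RNA came from culture or from a tumor, and nothing ties equal letters or numbers to a shared animal or culture.

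Each aquaporin spans the membrane 6 times and assembles into tetramers in which every subunit has its own pore. The classical members Aqp1, Aqp4, Aqp5 and Aqp8 conduct mainly water, and Aqp8 also passes ammonia and hydrogen peroxide. The aquaglyceroporins Aqp3, Aqp7 and Aqp9 also pass glycerol and other small solutes, and Aqp11 is an unorthodox member that sits largely in the membranes inside the cell. Glandular epithelia use these channels when they secrete or resorb fluid, as the prostate does in making its part of the seminal fluid.

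The Arid1a transcript did not separate the epithelium groups as their labels would have it. In epithelium its mean was 25.4 ± 3.13 RPKM (reads scaled by the length of the gene and the depth of the library; SD, n = 3) in controls and 30.2 ± 1.23 in the libraries labelled Arid1a KO, a log2 difference of 0.25 ± 0.09 (SE) that was not called (limma, adjusted p = 0.0540), and every library labelled KO was above every control. A value summed over the gene need not show the loss of an exon, and single exons were not examined. The reason for the higher values was not tested and the label could not be checked in this way. KO below stands for the libraries labelled Arid1a KO. In Myc-CaP, Arid1a fell from 60.7 ± 0.36 to 39.9 ± 0.58 TPM (transcripts scaled to a common total; SD, n = 2), a log2 difference of -0.59 ± 0.06 (limma, adjusted p = 0.0102). The epithelium libraries held about 28800000 to 36300000 reads, as recovered from the steps of the RPKM values, and 1 read of Aqp11 was worth 0.0862 to 0.0995 TPM in Myc-CaP. Limma, run on log2(value + 1) where the mean value reached 0.5, called 9294 of 16275 genes (57.1%) different in epithelium at an adjusted p under 0.05, of which 27.5% of all genes tested were higher and 29.6% lower in Arid1a KO. In Myc-CaP it called 899 of 13974 genes (6.43%).

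The 250 bases upstream of the RefSeq start are shown for Aqp3, which was higher in Arid1a KO epithelium, for a start of Aqp9, also higher, and for Aqp1, the most abundant aquaporin of the controls, because these 3 windows hold no annotated exon. They are written 5′ to 3′ on the gene's strand from RefSeq on GRCm38.p6, with matches to the motifs searched in capitals.
Aqp3 (chr4:41098184-41098433, minus strand): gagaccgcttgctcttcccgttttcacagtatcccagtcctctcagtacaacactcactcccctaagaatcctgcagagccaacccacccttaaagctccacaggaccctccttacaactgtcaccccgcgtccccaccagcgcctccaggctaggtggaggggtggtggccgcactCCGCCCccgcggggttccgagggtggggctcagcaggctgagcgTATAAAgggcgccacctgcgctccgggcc
Aqp9 (chr9:71162634-71162883, minus strand): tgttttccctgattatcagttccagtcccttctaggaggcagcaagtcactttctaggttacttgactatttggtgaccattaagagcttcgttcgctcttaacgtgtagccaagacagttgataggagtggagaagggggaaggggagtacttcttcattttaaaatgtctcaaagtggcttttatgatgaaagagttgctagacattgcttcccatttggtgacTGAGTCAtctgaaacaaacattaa
Aqp1 (chr6:55336049-55336298, plus strand): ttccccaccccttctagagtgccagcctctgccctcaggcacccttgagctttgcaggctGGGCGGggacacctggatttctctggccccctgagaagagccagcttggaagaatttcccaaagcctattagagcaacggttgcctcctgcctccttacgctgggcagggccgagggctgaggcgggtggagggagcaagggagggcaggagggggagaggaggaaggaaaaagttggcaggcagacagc
The Aqp3 window had 64% G and C, 14 CpG dinucleotides, 1 GC box (GGGCGG or its reverse complement) and a TATAAA next to the start. The Aqp1 window had 62% G and C, 5 CpG and 1 GC box, and the Aqp9 window 41.6% G and C, 3 CpG and 1 AP-1 motif (TGANTCA). On both strands of 32851 mouse promoter windows of the same source, a GC box was found in 32.7%, TATAAA in 12.4% and the AP-1 motif in 6.75%. None of the 3 windows held the NF-kB motif (in 7.25% of all windows), the E-box CACGTG (6.02%) or the androgen receptor half-site AGAACA (16.1%). These matches describe letters in the windows and nothing about a factor.

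Aqp4 differed most. It is the main water channel of astrocytes and also lies in the membranes of skeletal muscle, gastric parietal cells and kidney collecting duct. The gene lies on the minus strand at chr18:15389496-15410982 (GRCm38, GENCODE M21), where an annotated antisense gene overlaps it. Controls A, B and C held 0.101, 0.0229 and 0.0854 RPKM, from 18, 5 and 16 reads. Arid1a KO libraries A, B and C held 33.0, 35.3 and 24.9 RPKM, from 6031, 6318 and 4307 reads. Controls were near the bottom of the measured range and all 3 KO libraries were far above them. The means were 0.0698 ± 0.0414 and 31.1 ± 5.46 RPKM (SD, n = 3), a 445-fold ratio, and the closest pair of libraries across the groups differed 246-fold. On the log2(RPKM + 1) scale, which understates changes of low genes, the difference was 4.89 ± 0.13 (SE), the 4th highest of 16275 genes tested. The control values rest on few reads, since an exact 95% Poisson interval around the 5 reads of control B runs from 1.62 to 11.7. Such intervals cover counting error only.

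Markers of glia and skeletal muscle, the best known sites of Aqp4 along with the kidney and stomach, are given here beside it. The astrocyte intermediate filament gene Gfap was between 0.252 and 0.480 RPKM in controls and between 0.255 and 0.387 in KO. The glutamate transporter gene Slc1a2 was between 0.00211 and 0.0295 in controls and between 0.0319 and 0.0695 in KO, higher in every KO library. Another glutamate transporter gene, Slc1a3, was between 0.504 and 0.702 in controls and between 0.0937 and 0.281 in KO, lower in every KO library. Both transporter genes were too low to test. Of the 6 glial markers listed, 3 were abundant enough to test, 0 were called higher and 1 lower, and their summed level was 18.9 to 20.8 RPKM in controls and 15.9 to 18.6 in KO. Most of this sum was Mbp, the myelin basic protein gene. For 5 skeletal muscle markers the sums were 4.94 to 5.32 and 4.44 to 5.09 RPKM, with 1 of 3 tested called higher, the actin gene Acta1 (log2 difference 0.70), and 2 lower. The part of such cells in the Aqp4 values was not tested. In bulk RNA of this kind a change in the number of cells of a type and a change of RNA per cell cannot be told apart.

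Among 16275 genes, those whose log2 profile over the 6 epithelium libraries lay closest to Aqp4 were Krt13, a keratin of stratified squamous epithelium that lacks a horny layer, LOC101056163 and Tpm3-rs7, at Euclidean distances of 0.589, 0.590 and 1.07 on centred log2(RPKM + 1) values. Krt13 was 9.88, 16.2 and 11.9 RPKM in controls and 483, 525 and 352 in KO, with the highest value in KO B and the lowest in KO C, as for Aqp4. These genes share the libraries and the large step between groups, and the likeness is a description over 6 libraries. The annotated genes next to Aqp4, looked up after their values were seen, showed no step of that size. Kctd1, 238 kb away, rose by a log2 difference of 0.22 ± 0.08 (limma, adjusted p = 0.0433), and Chst9, 40.9 kb away on the other side, was 0.21 ± 0.105 RPKM in controls and 0.387 ± 0.0776 in KO, too low to be tested.

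**Figure D1:**
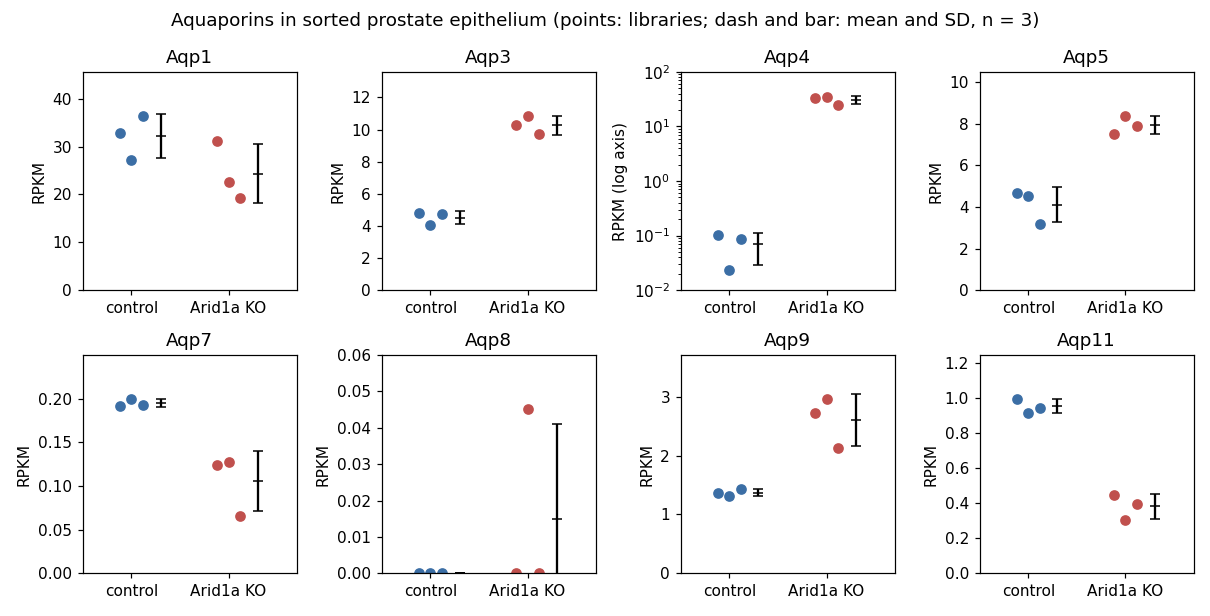
RPKM of the 8 aquaporins in the 6 epithelium libraries, 1 panel a gene with its own axis from 0, except Aqp4, whose axis is logarithmic. Points are libraries and the dash and bar give mean and SD (n = 3, bars stopped at 0); Aqp3, Aqp4, Aqp5 and Aqp9 were higher in every KO library, Aqp7 and Aqp11 lower, and Aqp1 overlapped between the groups.

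Aqp1 and Aqp5, the other classical channels with appreciable levels, differed from Aqp4 and from each other. Aqp1, the water channel of red cells, capillary endothelium and kidney proximal tubule, lies at chr6:55336432-55348555 on the plus strand. Its RPKM was 32.9, 27.3 and 36.5 in controls and 31.2, 22.6 and 19.3 in KO, so KO A lay within the control range while KO B and C lay below it. The means were 32.2 ± 4.65 and 24.4 ± 6.11 RPKM, a log2 difference of -0.41 ± 0.17 (SE) that was not called. Without KO library A the difference was -0.59 and was called, while 12 of the 13 alternatives did not call it. This is a description, since the members were chosen on this contrast.

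Of the known sites of Aqp1, red cells and endothelium are cells that a sort for epithelium should remove. The 7 endothelial markers summed to 59.8, 50.6 and 62.4 RPKM in the controls and 65.1, 61.9 and 52.4 in KO, in the order A, B, C, with 1 called higher and 1 lower. Within each group the libraries stood in the same order for this sum and for Aqp1, with C, A, B in controls and A, B, C in KO. Fibroblast, T cell, skeletal muscle and seminal vesicle sums also ran C, A, B in controls. Erythroid, leukocyte, neutrophil, adipocyte and smooth muscle sums also ran A, B, C in KO. With so few libraries such orders are a description only. Of 6 erythroid markers, the 3 tested all fell, with a median log2 difference of -2.27, and their sum went from a range of 368 to 462 RPKM to 65.4 to 108. These were Hbb-bs, Hba-a1 and Alas2, while the red cell membrane genes Slc4a1 and Epb42 did not exceed 0.111 RPKM in any library. The part of these cells in the Aqp1 values was not tested.

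Aqp5, the apical water channel of salivary, lacrimal and lung epithelium, lies at chr15:99590782-99594829 on the plus strand. It stood at 4.68, 4.51 and 3.16 RPKM in controls and at 7.52, 8.40 and 7.90 in KO. The 3 KO libraries were all higher than any control, and control C was lower than the other two. The means were 4.12 ± 0.83 and 7.94 ± 0.44 RPKM, 1.93-fold apart, with a log2 difference of 0.82 ± 0.12 (SE). Aqp8, a channel of colon, pancreas and liver, was at 0 in 5 epithelium libraries and at 0.0452 RPKM in KO B, which was 2 reads. At this depth 0 reads allow a level of up to 0.0556 to 0.0701 RPKM of Aqp8 (3 reads), so no difference was detectable.

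The aquaglyceroporins did not move as 1 group. Aqp3, a basolateral water and glycerol channel of skin and other stratified epithelia, lies at chr4:41092722-41098183 on the minus strand, just downstream of the GC-rich window shown above. It was 4.79, 4.05 and 4.71 RPKM in controls and 10.3, 10.9 and 9.69 in KO, from 250 to 259 and from 492 to 571 reads. All KO libraries were at least 2.02-fold above every control. The means were 4.52 ± 0.409 and 10.3 ± 0.591 RPKM, 2.28-fold apart, with a log2 difference of 1.03 ± 0.08 (SE).

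Aqp9, known from hepatocytes and neutrophils as a carrier of glycerol, urea and other neutral solutes, lies at chr9:71110659-71168682 on the minus strand. It was 1.36, 1.32 and 1.44 RPKM in controls and 2.72, 2.96 and 2.12 in KO, with every KO library above every control. The means were 1.37 ± 0.0625 and 2.60 ± 0.434 RPKM, 1.90-fold apart, with a log2 difference of 0.60 ± 0.11 (SE). Leukocyte markers were present in spite of the CD45 gate and were higher in KO. All 5 general leukocyte markers rose, with sums of 451 to 475 RPKM in controls and 782 to 846 in KO, as did 7 of 7 macrophage markers, with sums of 1964 to 2294 and 3674 to 4224. Of 7 neutrophil markers, 4 rose, and their summed level overlapped between the groups, at 337 to 475 and 386 to 637 RPKM. How much of the Aqp9 value came from such cells was not tested. The annotated Aqp9 gene overlaps 2 other genes on the opposite strand, and strand-specific counting is stated in the methods of the study.

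Aqp7, the glycerol channel of adipocytes, lies 44.6 kb from Aqp3 on chromosome 4, at chr4:41033074-41048139, and was lower in every KO library. It was 0.192, 0.200 and 0.192 RPKM in controls and 0.124, 0.127 and 0.0658 in KO, from 18 to 23 and from 6 to 12 reads. The groups did not overlap and the means, 0.195 ± 0.00451 and 0.106 ± 0.0347 RPKM, were 1.84-fold apart, but the level was below the minimum for the fit. With no filter on low values the log2 difference was -0.11 ± 0.03 (SE), just inside the threshold for a call. Defining adipocyte genes were nearly absent, with Lep at 0 and Adipoq at or below 0.208 RPKM in every library, and the sum of the 6 adipocyte markers, most of it Fabp4, was 15.2 to 16.7 in controls and 10.1 to 11.4 in KO. The genes flanking the Aqp3 and Aqp7 pair, chosen after their values were seen, were not called (Nfx1, log2 difference -0.08; Nol6, -0.04).

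Aqp11, which in mice is best known from the endoplasmic reticulum of the kidney proximal tubule, lies at chr7:97724006-97738289 on the minus strand and was lower in every KO library. It was 0.996, 0.916 and 0.946 RPKM in controls and 0.447, 0.305 and 0.394 in KO, from 39 to 44 and from 12 to 18 reads. Controls were tightly grouped and all KO libraries lay well below them. The means were 0.953 ± 0.0402 and 0.382 ± 0.0721 RPKM, 2.49-fold lower in KO, while on the log2(RPKM + 1) scale the difference was -0.50 ± 0.09 (SE). The genes closest to it in profile over the 6 libraries were Rnf167, Zfp523 and Thg1l, at distances of 0.0685, 0.0804 and 0.0825. Of its neighbours, chosen after their values were seen, Clns1a was not called (log2 difference -0.17) and Pak1 fell by 0.24 (limma, adjusted p = 0.0347).

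In total 6 of the 8 members passed the filter in epithelium, 5 of the 6 were called, 4 of them higher and 1 lower, and 5 had groups that did not overlap. Among all 16275 genes tested 57.1% were called and 66.7% had groups that did not overlap, and since these contrasts entered the choice of the members nothing is read from the comparison. Aqp4 passed the filter through its KO libraries alone. Squamous markers and a part of the basal epithelial markers were also higher in KO. The 4 squamous markers tested, Krt13 among them, all rose (median log2 difference 1.32), with sums over 5 listed markers of 310 to 375 RPKM in controls and 993 to 1261 in KO. Of 4 basal markers 2 rose, Krt5 and Krt14, with sums over the list of 1331 to 1884 and 2309 to 2584 RPKM. The other basal markers were not called. Krt15 was lower in every KO library, at 942 to 1353 RPKM in controls and 812 to 899 in KO. Trp63 overlapped, at 4.80 to 5.26 and 3.53 to 4.99. Of 5 prostate luminal markers 4 fell, with a median of -1.83 and sums of 343 to 421 and 101 to 165 RPKM, and all 6 seminal vesicle markers fell. These lists moved with the groups, and their part in the aquaporin values was not tested.

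The aquaporin pool differed between the groups in its sum and in its leading gene. Summed over the 12 genes, RPKM was 44.2 ± 4.41 in controls, between 39.3 and 47.9, and 76.9 ± 10.9 in KO, between 64.6 and 85.3. Aqp1 held 72.8% of the sum in controls, between 69.5% and 76.2%, and 31.5% in KO, between 27.9% and 36.5%. Aqp4 held 0.153% in controls and 40.3% in KO, between 38.5% and 43.7%, so it took the first place there, although its range of RPKM overlapped that of Aqp1. Aqp3 and Aqp5 held 13.5% and 10.5% in KO. In controls, levels ran from Aqp1 through Aqp3 and Aqp5, whose ranges overlapped, to Aqp9, then Aqp11 and Aqp2, whose ranges overlapped, then Aqp7 and last Aqp4 with the genes at or near 0. In KO the order was Aqp4 and Aqp1, then Aqp3, Aqp5, Aqp9 and Aqp11, each with its range apart from the next, and then Aqp2 and Aqp7, whose ranges overlapped. RPKM is per length, so these levels can be set side by side.

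**Figure D2:**
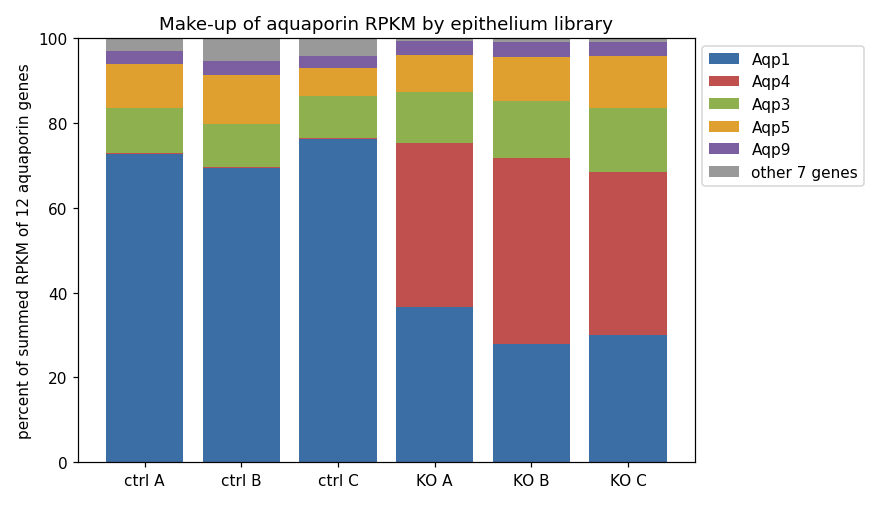
Share of each aquaporin in the summed RPKM of the 12 aquaporin genes, in percent, 1 bar a library (ctrl, control; KO, Arid1a KO). Aqp1 makes up 69.5% to 76.2% of each control bar and 27.9% to 36.5% of each KO bar, where Aqp4 takes 38.5% to 43.7%.

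Of the aquaporins outside the chosen 8, Aqp2, the vasopressin-regulated channel of the kidney collecting duct, was the only one above 4 reads in any epithelium library. It lies 6.24 kb from Aqp5 on chromosome 15. Its RPKM was 0.215, 0.992 and 0.748 in controls and 0.0696, 0.119 and 0.147 in KO, from 9, 51 and 33 reads and from 3, 5 and 6 reads. The groups did not overlap, but the controls spread widely. An exact two-sided permutation test gave p = 0.10, the smallest that 3 against 3 allows. That value is fixed once groups do not overlap, so it adds nothing. With no filter on low values the log2 difference was -0.54 ± 0.18 (SE) and was not called (limma, adjusted p = 0.0698). Aqp5 and Aqp2 thus lay on opposite sides of their controls although they are close neighbours. Racgap1, which flanks the cluster of Aqp2, Aqp5 and Aqp6, rose by a log2 difference of 0.48 ± 0.10 (limma, adjusted p = 0.00534), and Faim2 on the other side was 0.576 ± 0.0903 RPKM in controls and 0.21 ± 0.0429 in KO, too low to be tested (both looked up after their values were seen).

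**Figure D3:**
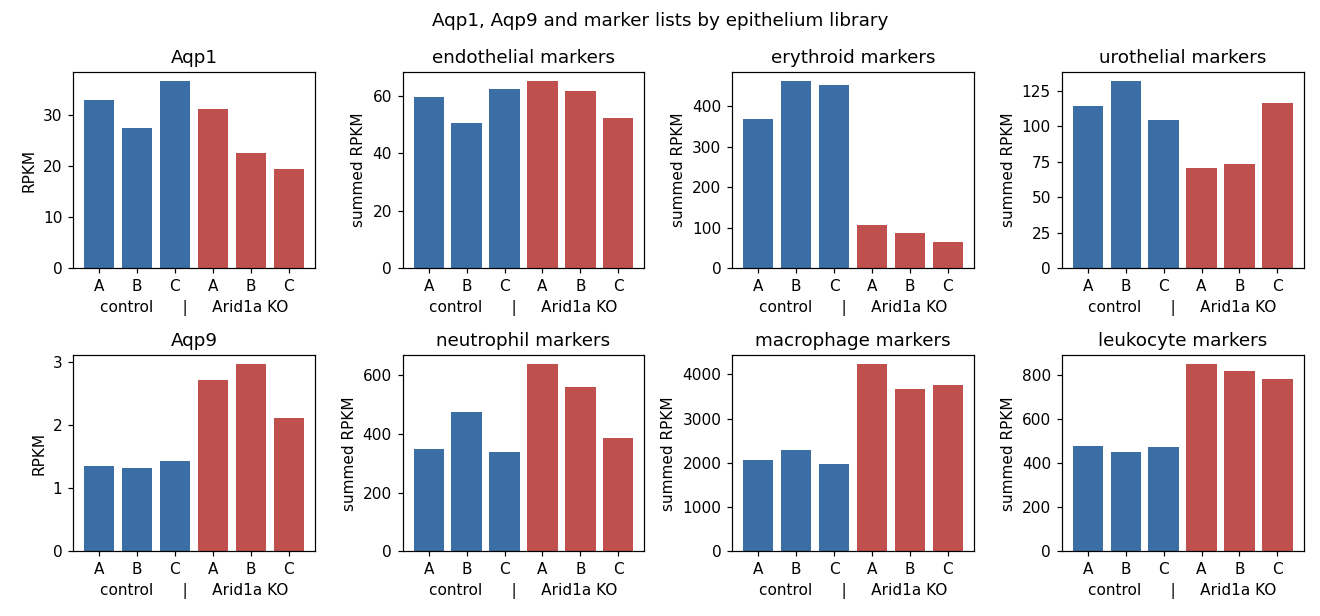
RPKM of Aqp1 and Aqp9 and summed RPKM of marker lists in the 6 epithelium libraries (bars, linear axes from 0; blue, control; red, Arid1a KO). Erythroid sums drop from 368 to 462 to 65.4 to 108, macrophage sums go from 1964 to 2294 to 3674 to 4224, and endothelial sums overlap between the groups.

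Myc-CaP cells held little aquaporin RNA apart from Aqp11. Aqp11 was 3.97 and 3.82 TPM in EV and 2.20 and 5.47 in Arid1a KO, from 46, 39, 24 and 55 reads. The KO libraries lay on either side of the EV libraries. Exact 95% Poisson intervals of the 2 KO libraries, 15.4 to 35.7 and 41.4 to 71.6 reads, did not overlap, so they differed from each other by more than counting error. The log2 difference was -0.11 ± 0.35 (SE), against -0.50 ± 0.09 in epithelium, and the difference between the systems was not tested.

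Aqp5 was 0.441 and 0.585 TPM in EV and 0.780 and 0.594 in KO, from 6, 7, 10 and 7 reads, a log2 difference of 0.16 ± 0.21 (SE). Aqp4 had 0 reads in all 4 libraries, where 3 reads would have been 0.0569 to 0.0657 TPM. The aquaporin with the highest mean in Arid1a KO epithelium was thus not detectable here with or without Arid1a. Aqp1 had 1 and 0 reads in EV and 3 and 1 in KO, and Aqp9 had 1 and 1 in EV and 0 and 3 in KO. Aqp3, Aqp7 and Aqp8 had at most 2 reads in any library, and at this depth no difference was detectable for these 5 genes.

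The 2 members that passed the filter in Myc-CaP, Aqp5 and Aqp11, gave 0 calls by limma, and 0 of them had an unadjusted p under 0.05, where 6.43% of all 13974 genes were called. Of all genes tested 51.5% had groups that did not overlap, with 2 libraries a group. The 12 genes summed to 4.79 ± 0.0591 TPM in EV and 4.95 ± 2.36 in KO (SD, n = 2). Aqp11 made up 81.4% of the sum in EV and 74.9% in KO.

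**Figure D4:**
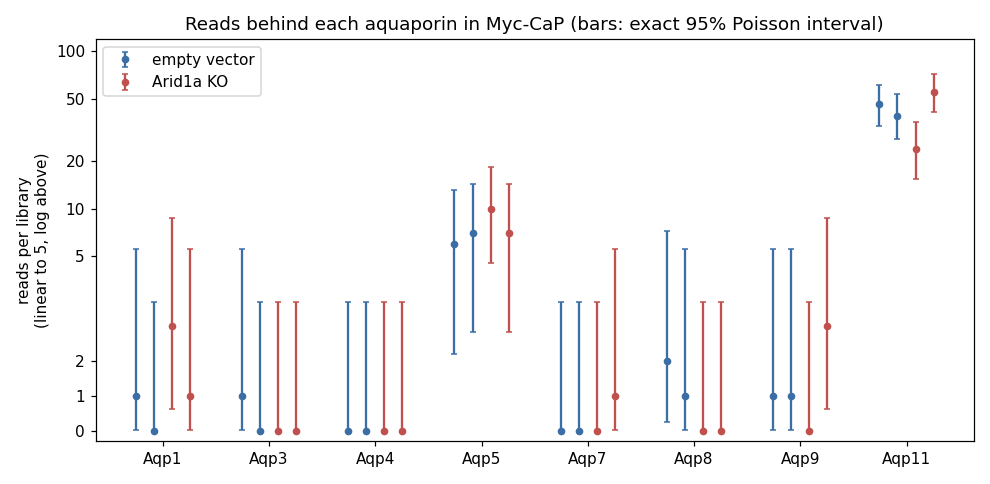
Reads behind each aquaporin in the 4 Myc-CaP libraries (axis linear up to 5 reads and logarithmic above; blue, EV; red, Arid1a KO; bars, exact 95% Poisson intervals of the reads). Aqp11 with 24 to 55 reads and Aqp5 with 6 to 10 stand above the other 6 genes, and Aqp4 is at 0 in all 4.

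Genes that work with these channels were taken from 5 lists of 64 names, chosen with earlier results of these data known. In epithelium 58 were tested, of which 18 rose and 21 fell with a median log2 difference of -0.12, where the median of all genes was -0.03 and 27.5% of all genes tested rose and 29.6% fell. In Myc-CaP 49 were tested, of which 6 rose and 3 fell with a median of -0.02, against -0.01 and 6.43% called for all genes. All calls below are by limma at an adjusted p under 0.05.

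Of 14 genes that handle glycerol and triacylglycerol, the solute side of Aqp3, Aqp7 and Aqp9, 3 rose and 7 fell in Arid1a KO epithelium. Dgat1, which makes triacylglycerol, rose by a log2 difference of 1.66 ± 0.13, and Gk, the kinase that traps glycerol in the cell, by 0.78 ± 0.08. Gpd1, which links glycerol 3-phosphate to glycolysis, fell by 1.58 ± 0.15, and the lipase gene Lpl fell by 0.84 ± 0.08. In Myc-CaP 0 of 11 rose and 1 fell, Dgat2 (-0.54 ± 0.09).

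Of 15 genes for cell volume and tonicity, 9 rose and 1 fell in epithelium. Nfat5, the factor that responds to hypertonic stress, rose by 0.98 ± 0.12, and the kinase gene Wnk1 by 0.95 ± 0.10. The 1 that fell was Akr1b3, the aldose reductase that makes sorbitol (-0.91 ± 0.15). In Myc-CaP 2 of 16 rose, the taurine transporter gene Slc6a6 (0.50 ± 0.05) and Sgk1 (0.42 ± 0.08), and 1 fell, the volume-regulated anion channel gene Lrrc8a (-0.45 ± 0.07).

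Of 15 genes for ion and fluid transport across epithelia, 4 rose and 8 fell in epithelium. The sodium channel subunit gene Scnn1b fell by 1.54 ± 0.11 and the chloride channel gene Clcn2 by 1.14 ± 0.11. Clca1, which encodes a secreted regulator of chloride channels, rose by 0.72 ± 0.10, and the bicarbonate cotransporter gene Slc4a4 by 0.41 ± 0.09. In Myc-CaP 3 of 12 rose, among them the chloride channel gene Ano1 (1.54 ± 0.07) and Scnn1a (1.33 ± 0.15), and 1 fell, Cftr (-1.10 ± 0.15).

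The dystrophin-associated complex that anchors Aqp4 in astrocytes and muscle did not rise with it. Of its 8 genes 1 rose and 3 fell in epithelium, with a median of -0.18. The dystrobrevin gene Dtna fell by 0.57 ± 0.10, while the syntrophin gene Sntb2 rose by 0.73 ± 0.10. In Myc-CaP, Dtna rose by 0.72 ± 0.12 and was the 1 called of 5. Of 6 genes for the trafficking of water channels, Akap7 rose by 0.32 ± 0.08, and Vamp2 (-0.39 ± 0.07) and Vta1 (-0.22 ± 0.07) fell in epithelium, and 0 of 5 were called in Myc-CaP.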

How the data were processed

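RNA was sequenced as paired ends. The methods of the study name TopHat2 on GRCm38 and strand-specific HTSeq counting, whereas the submitters' processing notes list HISAT2, HTSeq, DESeq2 and mm10; the gene lengths used are not given in the sources used here. The authors deposited RPKM values for the 6 epithelium libraries and TPM values for the 4 Myc-CaP libraries, 48897 rows each, normalized separately, so tests were made within a table. A deletion shared by both epithelium groups and some listed genes are not reported here by name. The members and gene lists were chosen with earlier results of these data known.

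Genes whose mean value reached 0.5 in a table entered a fit on log2(value + 1) with limma 3.58.1 (R 4.3.3; eBayes with a trend), two-sided, with Benjamini-Hochberg adjustment over all genes tested and calls at an adjusted p under 0.05. The fit was tested on simulated data. Whole reads were recovered from the steps of the values: every member value was a whole multiple of what 1 read was worth. For RPKM the depth was the one at which 5922 gene lengths came out whole (median distance 0.000486 bases). A common factor could be missed, and the reads served for description only. Intervals are exact Poisson at 95%, and the floor is 3 reads. All 8 members and the 4 other aquaporins were named, with up to 2 called genes of largest rise and fall per list. The methods give 3 mice for the sorted epithelium without tying a library to an animal, and no source says whether the Myc-CaP libraries came from separate cultures, so p-values measure the spread between libraries, which may be technical. Alternatives changed the pseudocount, filter, scaling, trend, replicate block, libraries and thresholds. Positions are from GENCODE M21, promoters and motif shares from RefSeq (GRCm38.p6).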

Additional observations from a re-analysis of the deposited data

Results flagged for a closer look

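The 7 genes below, none of them an aquaporin, are examples from the related genes named above and the genes next to members. In each, every Arid1a KO library lay on one side of every control in epithelium and on the other side in Myc-CaP. Arid1a itself and other genes of the related lists, among them Lrrc8c and Scnn1g, did the same and were not counted. The difference between the systems was not tested. The log2 differences in epithelium and Myc-CaP were -1.58 and 0.21 for Gpd1, 0.41 and -0.28 for Slc4a4, -0.57 and 0.72 for Dtna, 0.26 and -0.45 for Lrrc8a, and -0.76 and 1.54 for Ano1, all from the related lists. Of the genes next to members, Racgap1 differed by 0.48 and -0.33 and Pak1 by -0.24 and 0.64. Groups that do not overlap were common, at 66.7% of genes in epithelium and 51.5% in Myc-CaP. The 2 systems differ in strain, driver lesion and cell make-up, which cannot be told apart from a difference in the response to Arid1a loss.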

How the results depend on the processing

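In epithelium Aqp3, Aqp4, Aqp5, Aqp9 and Aqp11 kept their direction in every alternative that tested them, which is a description since the members were chosen on this contrast, with log2 differences between 0.97 and 1.19 for Aqp3, 4.79 and 7.54 for Aqp4, 0.68 and 0.97 for Aqp5, 0.52 and 0.86 for Aqp9, and -1.14 and -0.43 for Aqp11; the largest sizes of Aqp4 and Aqp11 came with the smaller pseudocount. The 1.5-fold threshold of the study was applied here to differences of log2(RPKM + 1), where 4 members passed. Aqp11, at -0.50 on that scale, did not pass, although its mean RPKM was 2.49-fold lower in KO. Aqp1 was called only without KO library A, and Aqp7 was called with no filter on low values (limma, adjusted p = 0.0495), where 6 of 8 members were called. With a minimum mean of 5, 3 members of 4 tested and 5872 genes were called, since fewer genes were tested. On the log2(RPKM + 1) scale 4037 genes passed the thresholds of the study. Scaling each library to 1 common sum took the median log2 difference over all genes from -0.03 to 0.11 and the share of calls that were higher from 48.1% to 64.6%. In Myc-CaP 899 genes became 358 with no filter, 451 without a trend, 2771 with a replicate block and 47 to 76 when 1 library was left out, where the lone library is assumed to vary like the others, and the 9 related genes became 3, 5, 17 and 1. Aqp11 in Myc-CaP, at -0.11, turned to 0.40 without KO library 1 and was -0.61 without KO library 2; the cause was not tested. Equal letters did not pair the epithelium libraries by their deviations (r = 0.041, 0.0094 and -0.057). In Myc-CaP r was 0.19 for equal numbers and -0.19 for unequal numbers. With 2 libraries a group these mirror each other, so shared variation of equal numbers is left unsettled there. The replicate block gave 8823 genes and 5 members in epithelium and 0 members in Myc-CaP. Few reads limit Aqp7, Aqp8 and Aqp11 and most members in Myc-CaP.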
